A study of Mus musculus with 24 samples.

Results

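Inguinal white adipose tissue of 5 treated old mice (Aged BAM15, 92 weeks) was compared with that of 7 untreated young mice (Young CTRL, 16 weeks) across all genes, to see what lay apart from the reference group of the series after treatment. These 12 libraries were taken by their labels out of 24, each from a separate mouse by its identifier. All were C57BL/6J wild-type animals, on a high-fat diet by the title of the series. The compound BAM15, a small molecule, acts as a mitochondrial uncoupler: it lets protons return to the mitochondrial matrix without making ATP. The labels give no dose, route, duration, sex or time of day of tissue collection. The groups differ in both age and treatment, and within this comparison the parts of age and of BAM15 cannot be told apart. The other 12 libraries, 6 of Aged CTRL and 6 of Young BAM15, entered the fit for the spread between mice. Values of Aged CTRL stand beside single results, and those of Young BAM15 are not given here.

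The inguinal depot lies under the skin of the groin. Its adipocytes store fatty acids as triglyceride, make part of them anew from glucose carbon, and secrete hormones such as leptin and adiponectin. A collagen-rich matrix, laid down mostly by fibroblast-like progenitors, surrounds the adipocytes, and macrophages, mast cells, nerves and vessels run through it. The depot also keeps a daily clock, in which the activator BMAL1 (gene Arntl) with its partners CLOCK and NPAS2 drives the PER and REV-ERB repressors and the output factors DBP, TEF and HLF.

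Treated old and untreated young mice differed at 205 of the 15939 genes tested (1.29%), at an adjusted p under 0.05 by edgeR's quasi-likelihood test. Of these, 123 (0.772% of genes tested) were higher and 82 (0.514%) lower in the treated old mice. The median difference among the 205 genes was 3.00-fold, and 178 genes differed at least 2-fold. An unadjusted p under 0.05 was reached by 2683 genes. In 95 of the 205 genes, every Aged BAM15 mouse lay on the same side of every Young CTRL mouse, a pattern that 252 of all genes tested (1.58%) showed, 121 of them higher (0.759%) and 131 lower (0.822%). The median log2 change over all genes was -0.01, against which the changes of single genes can be read. Leaving out 1 library at a time gave from 46 calls (without Aged BAM15 5) to 630 (without Aged BAM15 1).

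**Figure D1:**
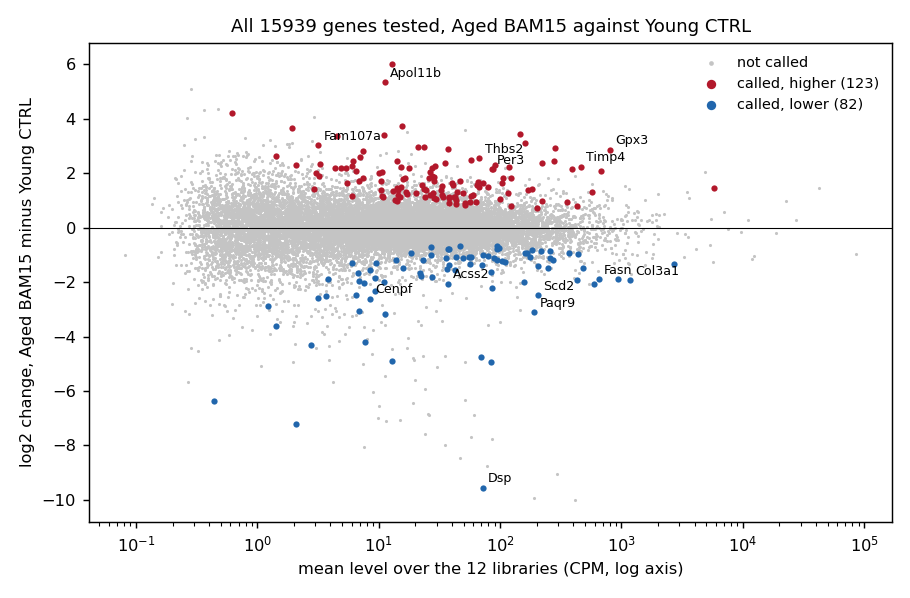
Log2 change of every gene tested (Aged BAM15 minus Young CTRL, vertical axis) against its mean level over the 12 libraries in CPM, the count scaled to the size of its library (log axis), with the 123 genes called higher in red and the 82 called lower in blue. Thbs2, Per3 and Timp4 lie among the rises, Acss2, Scd2 and Fasn among the falls, and the steep fall of Dsp is set by Young CTRL 1 and 7.

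Library totals ranged from 9.34 to 20.7 M counts in Aged BAM15 and from 11.5 to 21.9 M in Young CTRL, and did not differ beyond their spread (two-sided exact permutation test, p = 0.455, also 0.455 adjusted over the 2 library values tested). The share of counts from the mitochondrial genome was 11.6 ± 7.10% (SD, n = 5) against 7.63 ± 2.05% (SD, n = 7; exact permutation p = 0.23, adjusted 0.455). It was highest in Aged BAM15 2 and 5 (21.4% and 16.9%) and, among young mice, in Young CTRL 4 (12%). These libraries were also the deepest of their groups, at 18.4, 20.7 and 21.9 M counts. Aged BAM15 2, Aged BAM15 5 and Young CTRL 4 stood apart: the mitochondrial ribosomal transcript mt-Rnr2 held 0.166%, 0.257% and 0.121% of their counts, against 0.722% to 2.26% in the other 9 libraries, and the first principal component (34.7% of variance) placed them at 146.9, 132.7 and 78.9, with all others at -8.5 or lower. Aged CTRL 2 also had a low share, at 0.201%. Without these 4 libraries 105 genes were called (79 higher, 26 lower), 65 of them among the 205, and without Aged BAM15 2 and 5 alone 31 genes were called. Young CTRL 1 and 7 held skin or mammary epithelial transcripts and Young CTRL 1 and 5 lymphocyte transcripts. The part of these differences between libraries in the results was not tested, and values without them are given beside single results.

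A small set of genes was called whichever libraries or methods were used. Of the 205, 36 were called in each of the 12 fits that left out 1 of the compared libraries, and 11 of them in all 26 alternative settings. Besides C130026I21Rik, a gene with near-identical copies whose count is therefore uncertain and which had the smallest p of all genes tested, these 11 were Thbs2, Per3, Fam107a, Rprml, St6galnac5, Adam33, Tns2 and Bmp4, which were higher in treated old mice, and Acss2 and Scd2, which were lower.

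Fam107a, which encodes a stress-responsive actin-binding protein, measured 2.14, 11.2, 5.24, 4.27 and 9.51 CPM in Aged BAM15 mice 1 to 5. Young CTRL mice ran from 0.421 to 1.20 CPM with a median of 0.818, so the groups did not overlap. Its log2 change was 3.04 ± 0.43 (SE, adjusted p = 0.000765). St6galnac5, a sialyltransferase that acts on gangliosides, measured 38.0, 36.2, 68.4, 57.5 and 70.2 CPM against 6.34 to 19.2 (median 9.67), again without overlap, a log2 change of 2.28 ± 0.35 (adjusted p = 0.00198). Rprml, a relative of the growth-arrest protein reprimo, was low throughout: it measured 5.82 to 16.5 CPM against 1.56 to 2.61, a log2 change of 2.21 ± 0.33 (adjusted p = 0.00198).

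Adam33, a membrane-anchored metalloprotease of mesenchymal cells, measured 36.4, 43.3, 67.0, 59.2 and 35.1 CPM in the treated old mice. In Young CTRL it spanned 6.07 to 18.2 CPM around a median of 14.6. Every treated old mouse was above every young one, and the log2 change was 1.89 ± 0.29 (adjusted p = 0.00198). Bmp4, a signalling ligand of the TGF-beta superfamily that commits progenitors to the adipocyte fate, measured 55.6, 30.2, 45.8, 27.3 and 26.4 CPM against 7.90 to 16.0 (median 14.4), a log2 change of 1.55 ± 0.31 (adjusted p = 0.0143). Tns2, a focal adhesion protein that binds the actin skeleton, was at 64.3 to 162 CPM against 27.5 to 44.8, a change of 1.51 ± 0.24 on the log2 scale (adjusted p = 0.00201).

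Other rises that stayed called in all 12 fits leaving out 1 library covered lipid handling and detoxification. Apod, a lipid-binding apolipoprotein, measured 112, 313, 95.0, 99.5 and 224 CPM against 14.8 to 55.6 (median 34.1), a log2 change of 2.30 ± 0.39 (adjusted p = 0.00363). Sult1a1, a phenol sulfotransferase, was 5.17-fold higher (adjusted p = 0.0101), but 101 CPM in Aged BAM15 1 lay inside the young range of 38.3 to 161 CPM. Without Aged BAM15 2 and 5 the log2 change of Sult1a1 was 1.34 with an adjusted p of 0.286, and that of Apod 1.57 with an adjusted p of 0.128. Without all 4 libraries of low mt-Rnr2 both stayed called, Sult1a1 at 1.61 (adjusted p = 0.025) and Apod at 1.58 (adjusted p = 0.044).

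Among the clock genes called, those of the repressing and output arms were higher in treated old mice, and the activator was lower. The labels give no time of day of collection. A difference in collection time between the groups cannot be told apart here and was not tested. Of 18 members tested, 6 were higher, 1 was lower and 11 did not pass, beside 1.29% of all genes called. Their median log2 change was 0.69, from -2.69 to 2.45. Per3, Dbp, Tef, Hlf, Per1 and Nr1d2 rose, and Arntl, the activator, fell.

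Per3, a PER family member of the negative arm (chr4:151003652-151044665 on the minus strand of GRCm38), measured 98.4, 268, 107, 121 and 183 CPM in Aged BAM15. Young CTRL mice ranged from 26.5 to 58.0 CPM (median 30.2), so the lowest treated old mouse was above the highest young one. The log2 change was 2.15 ± 0.29 (adjusted p = 0.000677), and it was 1.63 (adjusted p = 0.0195) without Aged BAM15 2 and 5. Dbp, an output transcription factor that binds D-box sequences, measured 56.9, 117, 57.3, 52.6 and 46.1 CPM against 8.51 to 18.5 (median 11.5), a log2 change of 2.37 ± 0.39 (adjusted p = 0.00305). Tef and Hlf, the other 2 factors of that family, rose by 2.45 ± 0.44 and 1.28 ± 0.23 (adjusted p = 0.00549 for both), again with no overlap. For Hlf the values were 31.7, 41.7, 43.6, 42.0 and 54.9 CPM against 8.49 to 23.9 (median 19). Tef was at 211, 1060, 350, 261 and 787 CPM against 70.4 to 182 (median 84.8), with its 2 highest values in Aged BAM15 2 and 5. Without those 2 libraries Hlf was at 1.14 (adjusted p = 0.11) and Tef at 1.48 (adjusted p = 0.209). Without all 4 libraries of low mt-Rnr2 Hlf was at 1.17 (adjusted p = 0.0346) and Tef at 1.72 (adjusted p = 0.000386).

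Arntl, which encodes BMAL1, measured 3.24, 1.51, 1.79, 2.82 and 9.16 CPM in treated old mice and 6.30 to 18.3 (median 14.3) in Young CTRL. Aged BAM15 5 and Young CTRL 4 were the only mice whose values crossed. The log2 change was -1.85 ± 0.43 (adjusted p = 0.0289), and it missed the threshold in 7 of 12 fits leaving out 1 library, with at most an adjusted p of 0.0957 without Aged BAM15 2. Without the 4 libraries of low mt-Rnr2 it was -2.48 (adjusted p = 0.000386). Nr1d2, which encodes REV-ERB beta, a repressor of Arntl, measured 68.8, 301, 89.7, 82.5 and 257 CPM against 17.5 to 90.9 (median 29.1), with the young maximum in Young CTRL 4. Its rise of 2.17 ± 0.49 (adjusted p = 0.0284) missed the threshold in 7 of the 12 fits and was 1.17 (adjusted p = 0.456) without Aged BAM15 2 and 5. Without all 4 libraries of low mt-Rnr2 that rise was 1.63 (adjusted p = 0.00266). Per1 rose by 1.21 ± 0.26 (adjusted p = 0.0226), a call lost without Young CTRL 6 or without Aged BAM15 2, 3 or 5 (adjusted p up to 0.0885). Per2 did not pass (1.65 ± 0.46, adjusted p = 0.0701), although its 5 values of 16.7 to 74.9 CPM all lay above the young range of 6.42 to 16.2. The activator partner Npas2 (-2.69, adjusted p = 0.154) and the D-box repressor Nfil3 (-1.82, adjusted p = 0.0773) also missed the threshold. Without Aged BAM15 2 and 5, Per3 and Dbp remained higher and Arntl lower, and without Young CTRL 1, 5 and 7 Per3, Dbp and Hlf remained higher. The count of the list fell to 2 higher and 1 lower in the first case and to 3 higher in the second.

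**Figure D2:**
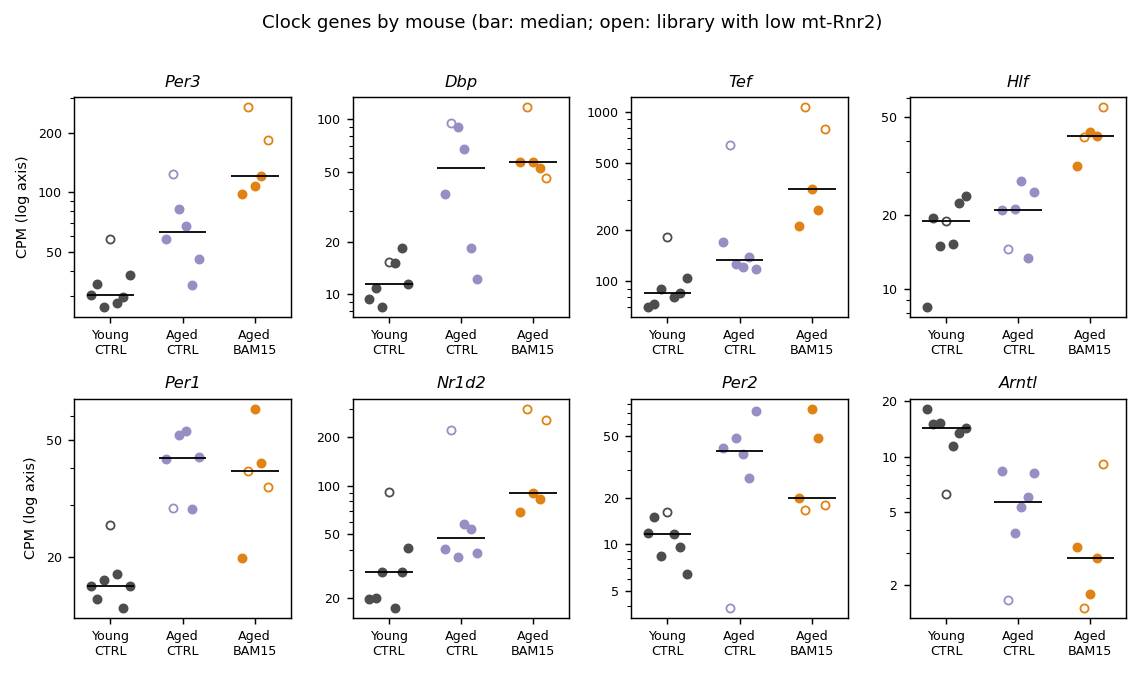
Levels of 8 clock genes by mouse in Young CTRL (n = 7), Aged CTRL (n = 6) and Aged BAM15 (n = 5), in CPM on log axes, with the median as a bar and the libraries of low mt-Rnr2 as open circles. Per3, Dbp, Tef and Hlf of all 5 Aged BAM15 mice lie above all Young CTRL mice, and Arntl lies at 1.51 to 9.16 CPM against 6.30 to 18.3.

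The promoters of the called clock genes were read from the RefSeq table (GRCm38.p6), and all 7 were found in it. The searched motifs were the E-box CACGTG bound by BMAL1 and CLOCK, the D-box TTATGTAA bound by DBP, TEF and HLF, and AGGTCA, the core of the site of REV-ERB and ROR receptors, each on both strands. Of 32851 promoters, 6.02% held the E-box, 0.819% the D-box and 14% AGGTCA in the 250 bases before the start. The windows with matches are printed 5′ to 3′ on the strand of the gene, with matches in capitals. Per3 held the D-box at 205 and 158 bases before its start, Tef (the downstream of its 2 starts) the E-box at 138, Per1 the E-box at 166 and AGGTCA on the other strand at 137, and Nr1d2 AGGTCA at 77. The upstream start of Tef also held an E-box, at 127 bases. The windows of Dbp, Hlf and Arntl held none of these letters, nor did that of the downstream start of Per1. The matches are a description of letters and show no binding.
Per3, chr4:151044666-151044915, minus strand: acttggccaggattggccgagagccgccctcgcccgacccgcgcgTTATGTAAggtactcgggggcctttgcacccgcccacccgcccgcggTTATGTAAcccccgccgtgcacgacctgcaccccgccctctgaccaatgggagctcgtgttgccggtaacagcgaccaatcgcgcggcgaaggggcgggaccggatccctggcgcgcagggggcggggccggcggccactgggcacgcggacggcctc
Tef, chr15:81811164-81811413, plus strand: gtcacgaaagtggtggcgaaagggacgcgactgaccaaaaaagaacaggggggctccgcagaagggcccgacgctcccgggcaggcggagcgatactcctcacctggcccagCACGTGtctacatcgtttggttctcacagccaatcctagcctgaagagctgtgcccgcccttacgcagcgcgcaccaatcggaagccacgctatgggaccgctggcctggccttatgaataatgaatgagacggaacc
Per1, chr11:69098699-69098948, plus strand: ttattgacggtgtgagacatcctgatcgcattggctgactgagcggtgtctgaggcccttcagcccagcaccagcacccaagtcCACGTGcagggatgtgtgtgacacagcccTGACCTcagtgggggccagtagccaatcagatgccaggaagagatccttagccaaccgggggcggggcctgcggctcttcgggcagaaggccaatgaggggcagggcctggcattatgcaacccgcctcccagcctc
Nr1d2, chr14:18239107-18239356, minus strand: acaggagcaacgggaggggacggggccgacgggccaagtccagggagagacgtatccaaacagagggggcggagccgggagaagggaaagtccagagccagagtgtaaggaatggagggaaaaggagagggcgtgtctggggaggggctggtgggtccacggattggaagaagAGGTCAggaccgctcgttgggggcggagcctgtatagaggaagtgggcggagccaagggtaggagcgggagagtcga

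Fatty acid synthesis genes were lower in treated old mice for the steps that supply acetyl-CoA and build the chain, and higher for 1 regulator. Of 19 members tested, 5 fell (Acss2, Scd2, Slc25a1, Fasn and Acly), 1 rose (Mlxipl) and 13 did not pass. Called members were 31.6% of the list, beside 1.29% of all genes tested, and the list median was -0.20 on the log2 scale. Acss2, which makes acetyl-CoA from acetate, measured 23.5, 14.7, 12.6, 9.62 and 4.90 CPM in Aged BAM15. In Young CTRL it stayed between 45.5 and 63.5 CPM (median 56.9), and no mouse of either group came near the other range. The log2 change was -2.05 ± 0.32 (4.15-fold lower, adjusted p = 0.00201).

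Scd2, a desaturase that introduces the first double bond into saturated fatty acids, measured 101, 72.6, 27.1, 50.1 and 29.6 CPM against 182 to 528 (median 294). The groups did not overlap, and the change was -2.47 ± 0.41 (adjusted p = 0.00307). Scd1, its better known relative, did not pass, at -0.17. Slc25a1, the citrate carrier that exports citrate from mitochondria for lipid synthesis, measured 104, 49.6, 49.6, 60.8 and 26.2 CPM against 171 to 312 (median 214), with a change of -1.99 ± 0.35 (adjusted p = 0.00549, and 0.11 without Aged BAM15 2 and 5). Without all 4 libraries of low mt-Rnr2 that change was -1.74 (adjusted p = 0.0149). Fasn, the fatty acid synthase itself, measured 390, 460, 115, 136 and 152 CPM against 659 to 1310 (median 870), a change of -1.90 ± 0.37 (adjusted p = 0.0116). Every treated old mouse was below every young one, but without Aged BAM15 5 the adjusted p of Fasn was 0.0503.

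Acly, which cleaves citrate to cytosolic acetyl-CoA, ranged from 44.0 to 71.7 CPM against 79.1 to 293 (median 103), with the young maximum in Young CTRL 1. Its change of -1.19 ± 0.28 (adjusted p = 0.0355) was -0.81 (adjusted p = 0.0423) without Young CTRL 1 and missed the threshold in 6 of 12 fits, with an adjusted p of up to 0.125 without Aged BAM15 5. Mlxipl encodes ChREBP, the carbohydrate-responsive activator of lipid synthesis genes, and moved the other way: 61.2, 156, 130, 94.5 and 159 CPM against 23.3 to 62.6 (median 35.6). Aged BAM15 1 alone lay within the young range, just under Young CTRL 4. The rise was 1.66 ± 0.33 (adjusted p = 0.0127), with an adjusted p of 0.0503 without Aged BAM15 5. Srebf1, the gene of the other main activator, did not pass (-0.09), nor did Acaca (-0.44) or Thrsp (0.34). Elovl6, which elongates palmitate, stood at -1.07 (adjusted p = 0.0732), and it passed at -1.60 (adjusted p = 0.0293) without Aged BAM15 2 and 5. Without those 2 libraries the calls of the list were Fasn, Elovl6, Scd2 and Acss2, all lower, and its median was -1.07.

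**Figure D3:**
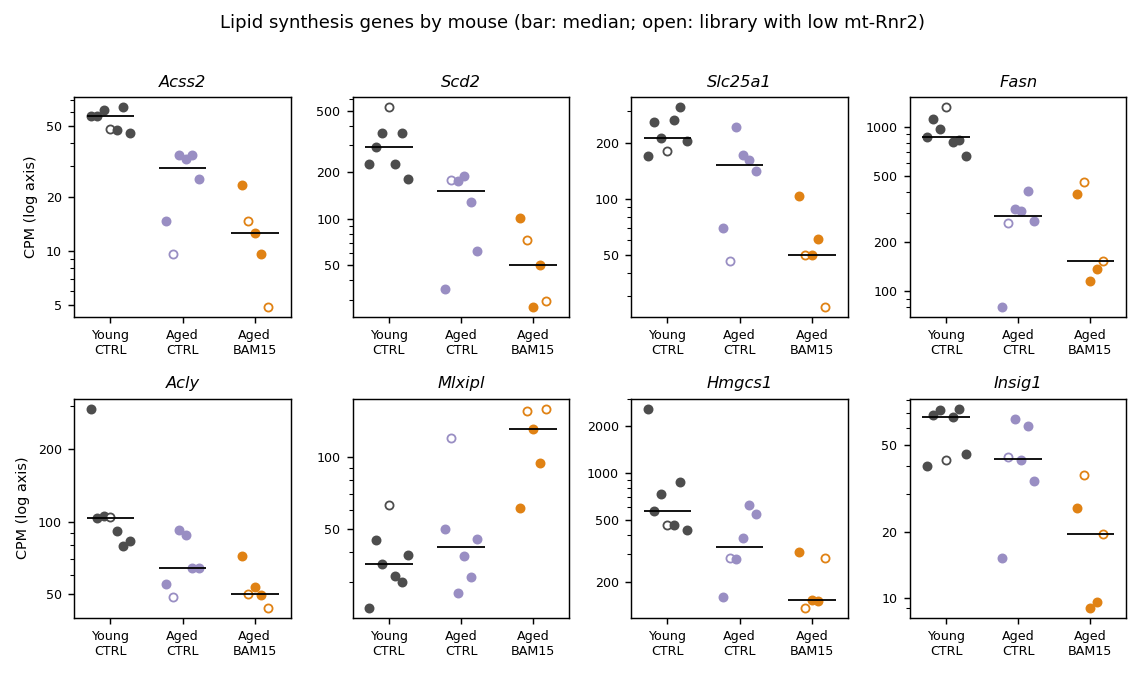
Levels of 8 lipid synthesis genes by mouse in Young CTRL (n = 7), Aged CTRL (n = 6) and Aged BAM15 (n = 5), in CPM on log axes, with the median as a bar and the libraries of low mt-Rnr2 as open circles. Acss2, Scd2, Slc25a1 and Fasn of the 5 Aged BAM15 mice lie under all Young CTRL mice, Mlxipl lies mostly above them, and Young CTRL 1 stands far above the rest for Hmgcs1 (2590 CPM) and Acly (293 CPM).

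Cholesterol synthesis and uptake genes leaned the same way, but much of the lean sat in 1 young library. Of 19 members tested, 4 fell, Hmgcs1, Nsdhl and Insig1 among them, and 15 did not pass (21.1% called, beside 1.29% of all genes tested). None had a log2 change above 0, and the median was -1.44. The summed level of the list was 416 to 840 CPM in Aged BAM15 and 911 to 6500 in Young CTRL. The list's median was -0.48 without Young CTRL 1. In that library Idi1, an isomerase of the pathway, stood at 97.7 CPM against no more than 1.34 in the other 6 young mice. Idi1 did not pass (-4.65, adjusted p = 0.136), and its change was -0.36 without Young CTRL 1. That library also held 2780 CPM of skin and mammary epithelial markers, whose part in the result was not tested.

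Hmgcs1, an early enzyme of the pathway, measured 312, 136, 153, 150 and 284 CPM in the treated old mice. Its young values ran from 428 to 2590 CPM with a median of 566, and the groups did not overlap with or without Young CTRL 1. The change was -2.08 ± 0.44 (adjusted p = 0.0189), and -1.51 (adjusted p = 0.0286) without that library. The call was lost without Aged BAM15 2 or 3 (adjusted p up to 0.0697). Insig1, which holds the sterol sensor in the endoplasmic reticulum, measured 25.8, 36.6, 9.05, 9.62 and 19.6 CPM against 40.0 to 73.4 (median 67.2), a change of -1.54 ± 0.37 (adjusted p = 0.0362) that missed the threshold in 7 of 12 fits (adjusted p up to 0.113, without Aged BAM15 5). Nsdhl, a sterol dehydrogenase, changed by -1.51 ± 0.34 (adjusted p = 0.0289), lost in 6 of 12 fits with an adjusted p of up to 0.113. Without Aged BAM15 2 and 5, 0 of the 19 members were called. Without all 4 libraries of low mt-Rnr2, Insig1 (-2.04) and Nsdhl (-1.79) passed, each with an adjusted p of 0.044. Hmgcs1 did not pass there (-2.20, adjusted p = 0.0732).

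Of 8 called genes named here that fell and act in the synthesis of fatty acids and cholesterol, 7, all but Scd2, were found in the promoter table. CCAAT, the box bound by NF-Y beside sterol elements, was present on either strand within 250 bases of the start of Acss2, Slc25a1, Fasn, Hmgcs1, Nsdhl and Insig1, while 33.8% of all promoters held it. CACCCCAC, a core of sterol regulatory elements, was held by 2.58% of all promoters and, of these 7, by Hmgcs1, whose window is shown for that reason. In capitals are CACCCCAC at 136 bases before the start, and CCAAT at 237, 176 and 45 bases, read on the other strand.
Hmgcs1, chr13:119690101-119690350, plus strand: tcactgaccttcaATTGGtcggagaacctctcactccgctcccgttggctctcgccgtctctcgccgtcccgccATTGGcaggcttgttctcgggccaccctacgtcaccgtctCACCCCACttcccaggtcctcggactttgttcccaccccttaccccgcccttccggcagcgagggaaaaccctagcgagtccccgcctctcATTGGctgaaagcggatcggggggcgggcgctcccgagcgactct

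Around this core of synthesis genes, fewer members of the other lipid lists were called. The shares were 14.3% for triglyceride synthesis, 7.14% for lipolysis and 5.56% for the lipid droplet and uptake, beside 1.29% of all genes tested. A single call says little about a list of this size. Of 14 triglyceride synthesis genes, 2 fell: Agpat2, which acylates lysophosphatidic acid (-1.93 ± 0.45, adjusted p = 0.0296), and Gk, the glycerol kinase (-1.49, adjusted p = 0.0485). The median of that list was -0.55, and 0 of its members were called without Aged BAM15 2 and 5 or without Young CTRL 1, 5 and 7. Agpat2 missed the threshold in 7 and Gk in 9 of the 12 fits (adjusted p up to 0.113 and 0.118). Of 14 lipolysis genes, 1 fell, Mgll, the monoglyceride lipase (-1.32 ± 0.34, adjusted p = 0.0485; lost in 9 of 12 fits, adjusted p up to 0.163), with a list median of 0.09. Of 18 genes for the lipid droplet and fatty acid uptake, 1 fell, Bscl2, which encodes seipin: 94.9 to 249 CPM against 255 to 543, a change of -1.18 ± 0.26 (adjusted p = 0.0286; lost in 6 of 12 fits, adjusted p up to 0.113). Fabp4, Plin1 and Cd36 stayed at 0.29, 0.22 and -0.03 without passing.

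Genes of mitochondrial fuel oxidation did not pass. Of 19 fatty acid oxidation genes, edgeR called 0, with 7 at an unadjusted p under 0.05 and a median of -0.43, while DESeq2 called 3 and limma-voom 9, all lower. Of 26 nuclear genes of the respiratory chain, edgeR called 0, with 7 at an unadjusted p under 0.05 and a median of -0.16, while DESeq2 called 2 and limma-voom 5, all lower. Of 17 brown and beige fat genes, 3 fell, with a median of -0.97: Dio2, the deiodinase that makes active thyroid hormone, Clstn3 and Gk. That was 17.6% of the list, beside 1.29% of all genes tested. Dio2 measured 0.259, 0.138, 0.00, 0.00 and 0.692 CPM against 1.26 to 8.24 (median 4.51), a change of -4.30 ± 0.91 (adjusted p = 0.0189) on low counts. Its adjusted p was 0.0632 without Aged BAM15 2, and 0.047 without Aged BAM15 2 and 5. Clstn3 fell by 1.98 on the log2 scale (adjusted p = 0.0277; lost in 5 of 12 fits, adjusted p up to 0.112). Ucp1, whose product makes heat in brown adipocytes, was at 0 in 4 of the 5 treated old mice and at 0.583 CPM in the other, against 0.00 to 7.76 (median 0.506) in young mice. Its change of -3.77 did not pass (adjusted p = 0.249).

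Among matrix genes, some secreted glycoproteins and 2 protease inhibitors rose, while 2 other glycoproteins and 4 collagens fell. Of 23 matricellular proteins and matrix glycoproteins, 3 rose (Thbs2, Ccn5 and Prg4) and 2 fell (Tnc and Postn), with a median of 0.23. Of 24 matrix proteases and their inhibitors, 2 rose, both inhibitors of metalloproteases (Timp3 and Timp4), with a median of -0.19. Of 19 collagens, 4 fell (Col3a1, Col5a3, Col6a2 and Col6a1), 0 rose, and all 19 had a log2 change below 0, with a median of -0.94. In this order of lists, 21.7%, 8.33% and 21.1% of members were called, beside 1.29% of all genes tested.

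Thbs2, a thrombospondin that binds matrix and metalloproteases, had the smallest p among the named genes other than C130026I21Rik (chr17:14665500-14694235, minus strand, for Thbs2). It measured 62.6, 77.6, 157, 91.8 and 267 CPM in Aged BAM15 and 11.9 to 38.8 (median 19.3) in Young CTRL. The groups did not overlap, and the level was 5.90-fold higher (log2 change 2.56 ± 0.35, adjusted p = 0.000677). Over the 12 fits leaving out 1 library its log2 change stayed between 2.13 and 2.75. Ccn5, a growth-restraining member of the CCN family, measured 53.6, 5.37, 40.4, 14.8 and 100 CPM against 1.58 to 10.8 (median 5.92). Aged BAM15 2 alone lay inside the young range, and the change was 2.95 ± 0.51 (adjusted p = 0.00492). Prg4, or lubricin, measured 13.1, 6.13, 7.68, 11.9 and 17.5 CPM against 1.21 to 3.60, without overlap, a change of 2.27 ± 0.49 (adjusted p = 0.0206). Its adjusted p was 0.0854 without Aged BAM15 5.

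Timp3, a matrix-bound inhibitor, measured 624, 569, 1120, 915 and 1110 CPM against 239 to 482 (median 336). All 5 were above all young mice, with a change of 1.30 ± 0.23 (adjusted p = 0.00531). Timp4, an inhibitor abundant in fat, measured 244, 899, 1010, 603 and 1540 CPM against 103 to 294 (median 192). Aged BAM15 1 lay inside the young range and the other 4 at least 2-fold above its top, a change of 2.24 ± 0.35 (adjusted p = 0.00201). Without Aged BAM15 2 and 5, Thbs2, Ccn5, Timp3 and Timp4 remained called.

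Among the falls, Tnc, the tenascin of remodelling matrix, measured 6.42, 3.65, 3.75, 2.91 and 3.34 CPM against 7.16 to 16.2 (median 13.0), a change of -1.55 ± 0.37 (adjusted p = 0.037). Postn, or periostin, was at 12.3 to 47.8 CPM against 50.3 to 123, a change of -1.38 ± 0.32 (adjusted p = 0.0329). Neither overlapped between groups, but both calls are thin: Tnc was lost in 8 and Postn in 9 of the 12 fits (adjusted p up to 0.125 and 0.0884). Col3a1, a fibrillar collagen, measured 757, 357, 341, 251 and 505 CPM against 640 to 2640 (median 1650). Aged BAM15 1 and Young CTRL 1 were the mice that crossed, and the change was -1.94 ± 0.36 (adjusted p = 0.00714), called in all 12 fits. Col5a3 fell by 1.48 on the log2 scale (adjusted p = 0.0127, and 0.0537 without Aged BAM15 5), Col6a2 by 1.41 (adjusted p = 0.0207, lost in 4 of 12 fits, adjusted p up to 0.0908) and Col6a1 by 1.26 (adjusted p = 0.0429, lost in 9 fits, adjusted p up to 0.113). Col1a1, the main fibrillar collagen, did not pass (-0.94, adjusted p = 0.2). Without Young CTRL 1, 6 collagens were called lower, without the 4 libraries of low mt-Rnr2 or without Aged BAM15 2 and 5 the count was 0, and the median stayed between -1.16 and -0.79 over the fits leaving out 1 library. As in every bulk sample, fewer cells of a type and less RNA per cell cannot be told apart.

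**Figure D4:**
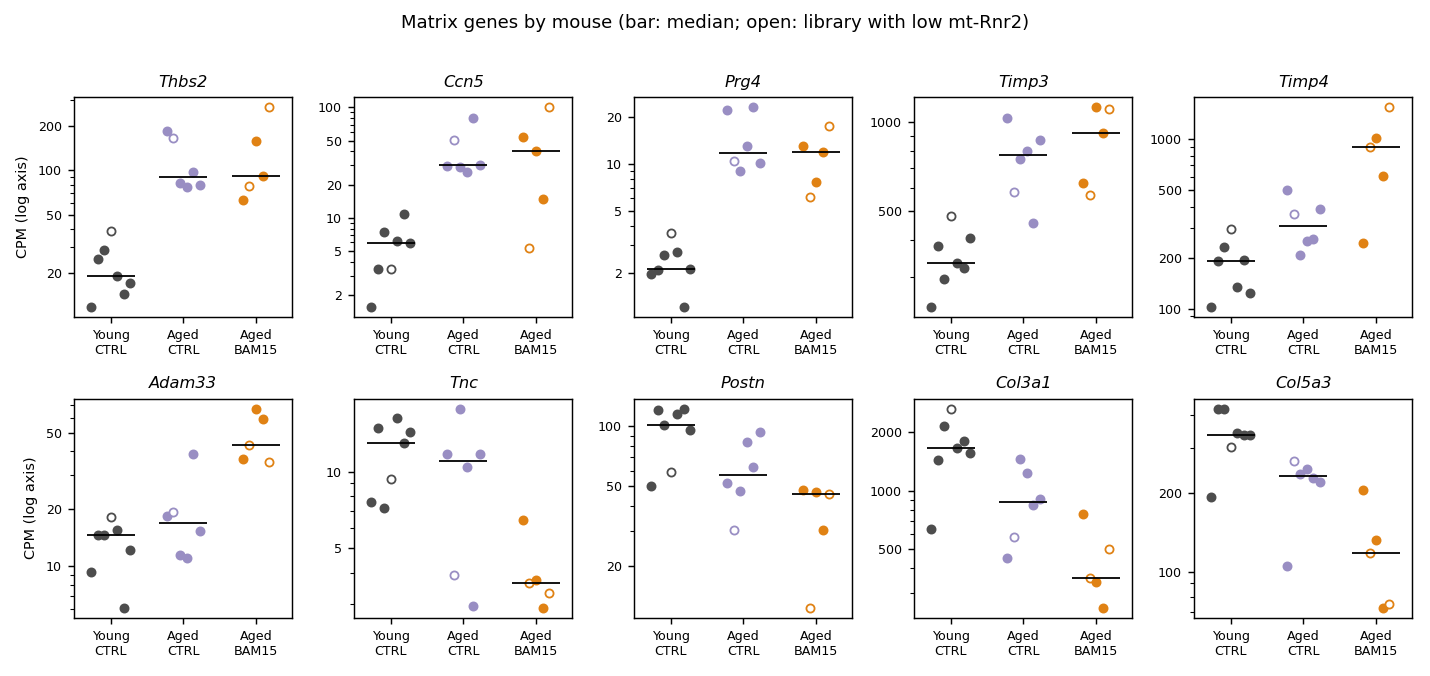
Levels of 10 matrix genes by mouse in Young CTRL (n = 7), Aged CTRL (n = 6) and Aged BAM15 (n = 5), in CPM on log axes, with the median as a bar and the libraries of low mt-Rnr2 as open circles. Thbs2, Prg4, Timp3 and Adam33 of all Aged BAM15 mice lie above all Young CTRL mice, and Tnc and Postn lie below them.

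Secreted adipocyte products and metal-binding proteins held further rises. Of 14 adipokines, 2 rose (Gpx3 and Cfd), 12 did not pass, and the median was 0.06 (14.3% called, beside 1.29% of all genes tested). Gpx3, a secreted glutathione peroxidase, measured 325, 3050, 1240, 884 and 2550 CPM against 82.9 to 694 (median 150), a change of 2.87 ± 0.53 (adjusted p = 0.00809). The 2 highest values were in Aged BAM15 2 and 5, the highest young value was in Young CTRL 4, and without Aged BAM15 2 and 5 the change was 1.87 (adjusted p = 0.219). Without all 4 libraries of low mt-Rnr2 the change of Gpx3 was 2.53 (adjusted p = 0.00888). Cfd, adipsin, measured 4870, 9570, 11700, 10300 and 9880 CPM against 1550 to 6870 (median 2660), a change of 1.47 ± 0.34 (adjusted p = 0.0297). The call of Cfd was lost in 9 of 12 fits (adjusted p up to 0.0948). Lep (-0.99, adjusted p = 0.442) and Adipoq (-0.22, adjusted p = 0.804), the genes of leptin and adiponectin, did not pass.

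Both metallothioneins, which bind zinc and copper, rose among 6 members of their list, whose median was 0.32 (33.3% called, beside 1.29% of all genes tested). Mt1 measured 918, 594, 2270, 944 and 1400 CPM against 186 to 519 (median 232), without overlap (2.10 ± 0.35, adjusted p = 0.00307). Mt2 measured 755, 185, 1470, 591 and 543 CPM against 86.8 to 317 (median 131), with Aged BAM15 2 inside the young range (2.16 ± 0.44, adjusted p = 0.0158, and 0.0687 without Aged BAM15 3). Neither passed without Young CTRL 1, 5 and 7. The genes lie side by side on chromosome 8 and are close in sequence, so reads that fit both may be shared between them. Of 14 genes of the glucocorticoid response, 3 rose (Mt2, Per1 and Hsd11b1; 21.4% called), with a median of 0.13. Mt2 and Per1 are counted above too. Hsd11b1, which regenerates active glucocorticoid, had values of 1060 and 1370 CPM in Aged BAM15 2 and 5 and of 101 to 202 in the other 3, against 40.4 to 170 in young mice. Its change of 2.91 (adjusted p = 0.0206) was 0.94 (adjusted p = 0.618) without those 2, and 1.28 (adjusted p = 0.045) without all 4 libraries of low mt-Rnr2. Fkbp5, a standard target of the receptor, did not pass (1.53, adjusted p = 0.0527). Of 20 antioxidant genes, Gpx3 rose and Prdx1 fell, with a median of -0.07 (10% called, beside 1.29% of all genes tested). Prdx1 changed by -0.97 (adjusted p = 0.0484), a call lost in 10 of 12 fits (adjusted p up to 0.146).

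The cell cycle list leaned lower in the treated old mice, with 4.17% of its members called beside 1.29% of all genes tested. Of 24 cell cycle genes, 1 fell, Top2a (-1.79 ± 0.44, adjusted p = 0.0431; lost in 9 of 12 fits, adjusted p up to 0.127), and the list median was -1.25, with 1 member above 0. Mki67 did not pass (-1.71, adjusted p = 0.072). Outside the list, 3 mitotic genes are described because they were called, so they add no support to the lean of the list. Mitotic genes outside the list that did not pass were not counted. Cenpf, a kinetochore protein, measured 2.14, 1.79, 2.26, 2.91 and 1.44 CPM against 5.47 to 17.5 (median 15.1), a change of -2.61 ± 0.46 (adjusted p = 0.00531). Kif15, a spindle motor, was at 0.0576 to 1.30 CPM against 2.53 to 11.6 (-2.59, adjusted p = 0.0158). Prc1, which bundles the central spindle, was at 0.576 to 3.05 CPM against 6.42 to 14.1 (-2.47, adjusted p = 0.0289; lost in 5 of 12 fits, adjusted p up to 0.113). None of these 3 overlapped between groups. Without Aged BAM15 2 and 5 no mitotic call named here was kept: the adjusted p was 0.11 for Cenpf, 0.11 for Kif15, 0.272 for Prc1 and 0.232 for Top2a. Their log2 changes in that fit were -2.40, -2.20, -1.97 and -1.60. Without all 4 libraries of low mt-Rnr2, Cenpf (-2.50, adjusted p = 0.00705) and Prc1 (-1.97, adjusted p = 0.044) passed. Kif15 (-2.21, adjusted p = 0.0507) and Top2a (-1.66, adjusted p = 0.0678) did not. Of 19 senescence and p53 target genes, edgeR called 0, with 6 at an unadjusted p under 0.05 and a median of 0.13, while DESeq2 and limma-voom each called 2, all lower. Cdkn1a, the cell cycle inhibitor p21, just missed the threshold (-2.01, adjusted p = 0.0542), with 55.6, 7.09, 60.5, 51.4 and 44.6 CPM against 95.7 to 223 (median 194) and no overlap.

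Markers of cell types were counted the same way. Of 24 macrophage markers, edgeR called 0 (median 0.12), with 4 at an unadjusted p under 0.05, DESeq2 0 and limma-voom 1 higher and 1 lower. Of 20 genes of lipid-associated macrophages, edgeR called 0 (median -0.62), with 7 at an unadjusted p under 0.05, DESeq2 3 lower and limma-voom 1 higher and 8 lower. Trem2, the receptor that defines the latter state, measured 10.8, 1.86, 3.09, 2.62 and 3.00 CPM against 4.41 to 13.7 (median 9.37), with Aged BAM15 1 inside the young range and the other 4 below it (-1.04, adjusted p = 0.361). Mmp12, a macrophage elastase, measured 13.7, 0.688, 2.38, 2.23 and 1.79 CPM against 11.3 to 37.8 (median 20.1), the same arrangement of mice (-2.41 ± 0.65, adjusted p = 0.0649). Without Aged BAM15 1, Mmp12 passed at -3.65 (adjusted p = 0.0028), as did Itgax, the gene of CD11c, at -1.84 (adjusted p = 0.0211, and 0.168 with that library).

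Of 12 mast cell genes, edgeR called 0, with 7 at an unadjusted p under 0.05, 11 of 12 above 0 and a median of 1.32 (0.52 without Aged BAM15 2 and 5), while DESeq2 called 4 and limma-voom 5, all higher. Their summed level was 84.3 to 618 CPM in Aged BAM15 and 32.4 to 124 in Young CTRL. The T and NK cell list (15 members, median 0.66) and the B cell list (15 members, median 0.25) had 0 calls with edgeR (0 and 1 at an unadjusted p under 0.05), 0 with DESeq2 and, with limma-voom, 0 and 1. Their sums were 15.2 to 301 against 20.4 to 301 CPM and 105 to 1240 against 609 to 1450 CPM. Ighd, a marker of naive B cells, was high in Young CTRL 1 and 5 (101 and 118 CPM, against 1.26 to 5.90 in the remaining young mice) and in Aged BAM15 2, 3 and 4 (32.5, 45.3 and 75.0 CPM, against 1.30 and 0.519). Without Young CTRL 1, 5 and 7 the median of the B cell list was 5.26, and it ran from -0.45 to 1.06 over the fits leaving out 1 library.

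The labelled tissue was checked by 16 adipocyte markers, which summed to 51000 to 110000 CPM in Aged BAM15 and 29700 to 95300 in Young CTRL, with a median log2 change of -0.19. Cfd was the 1 member called (6.25%, beside 1.29% of all genes tested). Skeletal muscle markers summed to 396 to 16000 and 113 to 84300 CPM, and edgeR, DESeq2 and limma-voom called 0 of 16, with 0 at an unadjusted p under 0.05. Skin keratinocyte and mammary epithelial markers summed to 7.50 to 25.9 CPM in Aged BAM15 and to 8.01 to 2780 in Young CTRL, where Krt14 stood at 840 CPM in Young CTRL 1, at 90.0 in Young CTRL 7 and no higher than 2.10 in the remaining 5. Of the 8 members, 1 was called, Dsp, a desmosomal protein, at 727 and 129 CPM in Young CTRL 1 and 7, no more than 1.65 in the remaining young mice and no more than 0.389 in Aged BAM15.

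Several of the largest differences rested on those few libraries. Among the 12 largest falls, Dsp (-9.56), Krt79 (-4.95), Pkp1 (-4.91) and Tmem45a (-3.19) all had their highest value in Young CTRL 1. Without that library Krt79 was at -1.75 (adjusted p = 0.0367), Pkp1 at -3.19 (adjusted p = 0.0955) and Tmem45a at -1.81 (adjusted p = 0.117). Hebp2, a heme-binding protein, stood at 38.0 CPM in Young CTRL 1 and changed by -3.04 with it and by -2.25 (adjusted p = 0.0215) without it. Paqr9, a receptor of the progestin and adiponectin receptor family, fell with no such dependence on Young CTRL 1: 96.4, 30.4, 10.2, 21.9 and 17.8 CPM against 107 to 551 (median 261), without overlap (-3.10 ± 0.57, adjusted p = 0.00714). Fam213b, a prostamide synthase, also fell without overlap, from 70.2 to 189 CPM in young mice to 13.7 to 61.5 (-2.20 ± 0.40, adjusted p = 0.00714). Both calls were lost without Aged BAM15 2 and 5 (adjusted p = 0.149 for Paqr9 and 0.123 for Fam213b) and without the 4 libraries of low mt-Rnr2 (0.121 and 0.063). Ear2, an eosinophil-associated ribonuclease, fell by 2.32 on the log2 scale (adjusted p = 0.0323; lost in 6 of 12 fits, adjusted p up to 0.123), and it belongs to a family of near-identical copies, so its count is uncertain.

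Among the 12 largest rises, Apol11b, S100a9 and Isg20 were highest in Aged BAM15 2 and Net1, Taf9b, Klhl29 and Hsd11b1 in Aged BAM15 5. Apol11b stood at 127 CPM in Aged BAM15 2 and at 0.119 to 2.48 in the other 4. Its change of 5.36 (adjusted p = 0.0467) became -0.50 (adjusted p = 0.943) without Aged BAM15 2 and 5. S100a9, a neutrophil protein, went from 3.42 (adjusted p = 0.0158) to 1.21 (adjusted p = 0.492), Net1, a guanine nucleotide exchange factor, from 3.43 (adjusted p = 0.0158) to 1.54 (adjusted p = 0.427), and Isg20 from 2.88 (adjusted p = 0.0226) to 1.18 (adjusted p = 0.526). Taf9b (2.98 to 0.50) and Klhl29 (2.81 to 1.27) were lost in the same way (adjusted p = 0.86 and 0.564). Without all 4 libraries of low mt-Rnr2, Isg20 (1.78, adjusted p = 0.0348) and Hsd11b1 (1.28, adjusted p = 0.045) passed. Apol11b, S100a9, Net1, Taf9b and Klhl29 did not (adjusted p from 0.217 to 0.877). Ccn5, also among the 12 largest rises, stayed called without Aged BAM15 2 and 5 (2.70, adjusted p = 0.0115). Prtn3, a protease of neutrophil precursors, rose by 2.58 (adjusted p = 0.0331) with its lowest value in Aged BAM15 2, and by 3.02 (adjusted p = 0.0293) without the pair. That call was lost in 8 of 12 fits, with an adjusted p of up to 0.12 without Aged BAM15 4.

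The same genes were set beside the 6 untreated old mice. This comparison, Aged CTRL minus Young CTRL, uses the same 7 young libraries, so the 2 sets of values are not independent. It called 33 of the 15939 genes (0.207%), 24 higher (0.151%) and 9 lower (0.0565%). The direct comparison of both old groups, Aged BAM15 minus Aged CTRL, called 0 (0%) with edgeR at the same threshold, while 1450 genes had an unadjusted p under 0.05, so no gene named here was shown to differ between treated and untreated old mice.

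Some genes stood at similar values from young mice in both old groups. Thbs2 was 2.56 ± 0.35 higher in Aged BAM15 and 2.36 ± 0.33 (adjusted p = 0.0012) higher in Aged CTRL, whose 6 mice ran from 77.3 to 184 CPM, and the old groups differed by 0.20 ± 0.35 (adjusted p = 0.905). Dbp stood at 2.37 and 2.07, Mt1 at 2.10 and 1.89, Mt2 at 2.16 and 2.47, Ccn5 at 2.95 and 2.89, Timp3 at 1.30 and 1.09, and Fasn at -1.90 and -1.78, in the order treated, untreated, and each was called in both. Hpgds, a prostaglandin D synthase, stood at 2.00 and 2.07, and Fam107a at 3.04 and 2.32.

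Other genes stood farther from young mice in treated than in untreated old mice by their values, with none of these gaps passing a test. Timp4 was at 2.24 and 0.85, Adam33 at 1.89 and 0.56, Bmp4 at 1.55 and 0.41, Hlf at 1.28 and 0.21, Cfd at 1.47 and -0.04, Mlxipl at 1.66 and 0.45, and Gpx3 at 2.87 and 0.55. The direct differences between the old groups were 1.39 ± 0.36 for Timp4 (adjusted p = 0.25), 1.34 ± 0.30 for Adam33 (adjusted p = 0.215) and 1.07 ± 0.24 for Hlf (adjusted p = 0.215). Among falls, Slc25a1 was at -1.99 and -0.72, Scd2 at -2.47 and -1.28, Acss2 at -2.05 and -1.11, Col3a1 at -1.94 and -0.90 and Tnc at -1.55 and -0.28. The median of the whole fatty acid synthesis list lay the other way, at -0.20 in treated and -0.83 in untreated old mice. For cholesterol synthesis and uptake the medians were -1.44 and -1.21, and for collagens -0.94 and -0.38. Mmp12 and Trem2 had opposite signs, at -2.41 and 1.48 and at -1.04 and 1.48, with direct differences of -3.89 (adjusted p = 0.105) and -2.51 (adjusted p = 0.226). Zfp185, an actin-associated LIM protein, was lower by 1.92 in untreated old mice (-1.92, adjusted p = 0.00111) and did not pass in treated ones (-0.65, adjusted p = 0.212), with a direct difference of 1.27 (adjusted p = 0.206). Mest, a gene of fat mass expansion (-0.28 and 0.47), and Gdf15, a stress hormone (0.67 and 1.93), passed in neither.

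**Figure D5:**
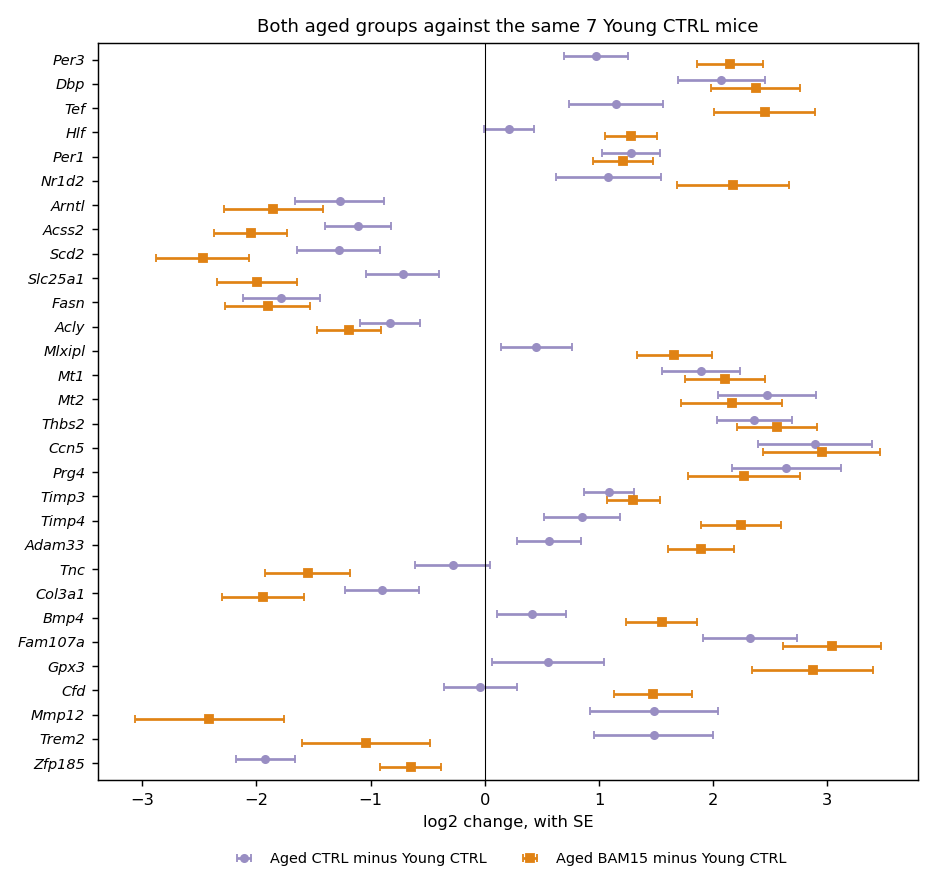
Log2 change with its SE of 30 genes in Aged CTRL (circles, n = 6) and Aged BAM15 (squares, n = 5), each against the same 7 Young CTRL mice. Thbs2, Mt1, Ccn5 and Fasn have nearly the same value in both, Adam33 (1.89 and 0.56) and Hlf (1.28 and 0.21) lie farther out in Aged BAM15, and Mmp12 (-2.41 and 1.48) changes sign.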

How the data were processed

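RNA of flash-frozen inguinal fat was sequenced from the 3′ end with a QuantSeq kit, per the labels' protocols. The authors deposited raw counts per gene, and per the submitters' processing notes the build was GRCm38 and the tools were R 3.4.3 and DESeq2 1.18.1. Which aligner, counter and gene models served is not given in the sources used here. A normalised table was not used here. Of 17541 genes, 15939 passed filterByExpr; 47 had no symbol. All 24 libraries were fitted as 4 groups with edgeR 4.0.16 (TMM, robust quasi-likelihood test, 20 residual degrees of freedom), with Benjamini-Hochberg adjustment over all genes tested and a threshold of 0.05. SE is the log2 change divided by the root of F. CPM used TMM library sizes. Alternatives used DESeq2 1.42.0, limma 3.58.1 and sva 3.50.0, other factors and filters, and fewer libraries. Only the edgeR fit of the main comparison was run on simulated counts. Those had a smaller spread between mice than the data and no odd libraries, so they do not show how the fit performs here.

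Genes were named by a rule: up to 12 per direction with the largest change among called genes of at least 5 CPM, up to 6 per direction with the smallest adjusted p, up to 4 called members per list, and a fixed set. C130026I21Rik, Fam107a, Tns2, Bmp4, Apod, Sult1a1, Hpgds, Nr1d2, Arntl, Per2, Nfil3, Npas2, Acly, Mlxipl, Elovl6, Bscl2, Tnc, Kif15, Idi1, Col1a1, Mki67, Fkbp5 and Krt14 were named after their values were seen. Scd1, Srebf1, Acaca and Thrsp are also given outside the rule, as uncalled members of the fatty acid synthesis list. The members and lists were chosen with earlier results of these data known. Libraries of a group differed by more than sampling noise (chi-square per gene 18 to 590 over 31 pairs), so none was counted as a repeat. Some genes that the naming rule picks are not reported here.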

Additional observations from a re-analysis of the deposited data

Results flagged for a closer look

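In 19 of 174 groups of 87 named genes, 1 library stood far from the others of its group by Dixon's test; chance alone flags about 1 in 20 groups. Young CTRL 1 was the highest of its group for Hebp2 (38 CPM), S100a9 (4.96 CPM), Hmgcs1 (2590 CPM), Krt79 (899 CPM), Tmem45a (84 CPM), Acly (293 CPM), Kif15 (11.6 CPM) and Idi1 (97.7 CPM), and the lowest for Col3a1 (640 CPM). Young CTRL 4 was the highest for Tef (182 CPM) and Per1 (25.8 CPM), the same library that had a low share of mt-Rnr2. Young CTRL 6 was the lowest for Hpgds (1.48 CPM).

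Among treated old mice, Aged BAM15 1 was the highest for Trem2 (10.8 CPM) and the lowest for Cfd (4870 CPM). Aged BAM15 2 was the highest for Dbp (117 CPM) and the lowest for Cdkn1a (7.09 CPM). Aged BAM15 4 was the 1 treated old mouse with any count of Ucp1 (0.583 CPM). Aged BAM15 5 was the lowest for Kif15 (0.0576 CPM) and Mki67 (0.98 CPM).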

How the results depend on the processing

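The 205 calls (123 higher, 82 lower) became 208 with DESeq2 size factors, 195 with upper-quartile factors, 157 without a filter, 216 with a 1 CPM filter and 239 with 1 surrogate variable. They became 826 (378 higher, 448 lower) with DESeq2, 1633 (735 and 898) with limma-voom, and 29 (22 and 7) with both groups fitted alone. Without the 4 libraries of low mt-Rnr2 there were 105 (79 and 26), without the 2 with skin keratin 86 (44 and 42), and without the 2 Young CTRL libraries with B cell transcripts 90 (44 and 46). In settings chosen after seeing the data, there were 31 (24 and 7) without Aged BAM15 2 and 5, and 51 (23 and 28) without Young CTRL 1, 5 and 7. The cause of these shifts was not tested. Leaving out 1 library gave 46 to 630 calls, 34 to 308 higher and 12 to 322 lower: 63, 95, 128 and 46 without Aged BAM15 2, 3, 4 and 5, 630 without Aged BAM15 1, 109, 109, 462, 130, 93 and 134 without Young CTRL 2 to 7, and 148 without Young CTRL 1. The share of calls that were higher was 60.1% with DESeq2 size factors, 65.1% with upper-quartile factors, 45.8% with DESeq2 and 45% with limma-voom. At least 201 of the 205 kept their direction in each alternative. The median log2 change of all genes moved to 0.114 without Young CTRL 1, 5 and 7. Apol11b reversed to -0.40 with limma-voom, to -0.63 without the 4 libraries of low mt-Rnr2 and to -0.50 without Aged BAM15 2 and 5.

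With the replicate number as a block, 17 genes were called (14 higher, 3 lower). The 5 pairs of the same number correlated at -0.56 to -0.13 in their deviations (median -0.30, against 0.02 over the 30 other pairs), so the numbers did not pair the samples. Depth of 9.34 to 21.9 M counts limits genes of few counts most, and the smallest gene total over all 24 libraries was 72 counts.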
